A study of Mus musculus with 3 samples.

Results

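Among the 27998 genes counted in each cell, 10 heat shock chaperones were followed, namely the cytosolic heat shock chaperones Hspa1a, Hspa1b, Hsp90aa1, Hsph1 and Dnajb1, which heat and other stresses induce, their constitutive cytosolic relatives Hspa8 and Hsp90ab1, and the mitochondrial chaperones Hspd1, Hspe1 and Hspa9. The members were chosen by name and by compartment, not by a measured value, but with earlier results of these data known. The study sorted CD133+ cells from mouse bone marrow by FACS, with over 90% viability per the labels, to compare young with aged mice, and counted their mRNA with the 10x Chromium 3′ v2 kit. Each of the 3 libraries, called young, control and old by its label, pooled 3 C57BL/6 mice, and no genotype or treatment was named. The labels gave 3 months for young, 3 months for control and 27 months for old, whereas the text of the series gave 18.5 months for old and called the cells intestinal. Because 1 library stood for each condition, no test across mice was possible, and age, mice and library cannot be told apart. The sort was made for endothelial-like cells, but 7 endothelial markers summed to between 2.05 and 5.47 UMIs per 1000000 UMIs (CPM) in the 3 libraries. Cdh5, the cadherin that defines endothelium, had 37, 3 and 0 UMIs in young, control and old. Pecam1 (CD31) had the most UMIs of the 7, with 260, 150 and 373 in the same libraries, and was thus not lowest in old. Markers of neutrophil precursors (Ltf, Camp, Ngp, Lcn2, Cebpe) summed to between 106237 and 122555 CPM, so most of what follows describes granulocyte precursors.

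Hsp70 proteins bind exposed hydrophobic stretches of unfolded clients in a cycle of ATP hydrolysis, which J-domain proteins such as Dnajb1 start and nucleotide exchange factors such as Hsph1 end. Hsp90 takes over part of these clients, among them kinases and steroid receptors, with the help of cochaperones. In mitochondria, Hspa9 (mortalin) pulls precursors through the inner membrane and the barrel of Hspd1 (Hsp60) with its lid Hspe1 (Hsp10) folds them. Protein damage frees the transcription factor HSF1, which binds inverted repeats of the unit GAA and raises the inducible genes within minutes, so that these transcripts are also known to appear when tissue is dissociated and sorted.

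Start regions of the inducible Hsp70 pair and of other members whose windows held HSF1-type repeats are shown here. They carry repeats of the kind HSF1 is known to bind and show how alike the pair is. No start region was read for Hspa8, Hsp90aa1, Hsp90ab1 or Hspa9, so whether they hold such repeats is not known here. Hspa1a (chr17:34969190-34972156, minus strand) and Hspa1b (chr17:34956436-34959238, minus strand) lie 9951 bases apart in GRCm38. Hspa1a overlaps Gm20481 on the other strand, which had 0 UMIs in every library, and no other gene overlaps Hspa1b. The 250 bases before their starts in RefSeq (GRCm38.p6) differed at 3 positions and both held one repeat GAANNTTC, in capitals, with its first base at -104 from the start. Hspd1 (chr1:55077835-55088243, minus strand) and Hspe1 (chr1:55088132-55091307, plus strand) lie head to head and overlap by 112 bases. A run of 3 overlapping repeats (TTCNNGAA, GAANNTTC, TTCNNGAA, in capitals) lay in the window of Hspe1 and in 1 of the 2 windows of Hspd1. That Hspd1 window belongs to the more downstream of its 2 RefSeq starts, and the window of the more upstream start held neither repeat. Hsph1 (chr5:149614287-149636376, minus strand) held 1 repeat 33 bases before the more upstream of its 2 RefSeq starts and a pair of overlapping repeats after it. The sequences run 5′ to 3′ on the strand of the gene, the first pair over chr17:34972157-34972406 and chr17:34959239-34959488, then Hspe1 over chr1:55088053-55088082 and Hsph1 over chr5:149636351-149636380 and chr5:149636287-149636316.
Hspa1a: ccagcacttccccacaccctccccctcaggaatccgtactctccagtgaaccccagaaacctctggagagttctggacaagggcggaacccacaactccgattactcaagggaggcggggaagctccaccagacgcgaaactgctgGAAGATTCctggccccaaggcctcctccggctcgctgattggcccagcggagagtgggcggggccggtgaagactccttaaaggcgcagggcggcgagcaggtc
Hspa1b: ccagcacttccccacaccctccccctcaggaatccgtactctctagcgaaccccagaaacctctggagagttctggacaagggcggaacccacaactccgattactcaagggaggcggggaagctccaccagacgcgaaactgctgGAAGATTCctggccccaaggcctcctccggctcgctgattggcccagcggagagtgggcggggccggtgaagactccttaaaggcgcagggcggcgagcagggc
Hspe1: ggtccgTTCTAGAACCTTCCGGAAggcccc
Hsph1, before the start: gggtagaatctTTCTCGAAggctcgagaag
Hsph1, after the start: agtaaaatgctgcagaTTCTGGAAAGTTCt
Both repeats read the same on either strand. Among 32851 promoter windows of 300 bases, 7.86% held GAANNTTC, 8.52% held TTCNNGAA, 15.1% held either and 1.32% held both. Neither repeat was in the windows of the 2 RefSeq starts of Dnajb1 (chr8:83608193-83612653, plus strand), which says only that these letters were not there.

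The young library stood apart from the other pair before any chaperone was read. After cells over 20% mitochondrial UMIs and cells outside the 5th to 95th percentile of UMIs were left out, 7521 young, 9780 control and 9537 old cells remained of 8362, 10869 and 10597, with 71505883, 95980225 and 122803960 UMIs and medians of 9720, 9561 and 13039 per cell. Markers of another blood lineage were carried by 769 young cells (10.2%), against 94 control (0.961%) and 83 old cells (0.870%), and 326 of those young cells fell in the lowest of the 4 bands of Mpo used below. The interferon-induced genes Isg15, Ifit1, Ifit3, Irf7 and Oasl2, chosen after the values were seen, summed to 354 CPM in young, 15.6 CPM in control and 12.04 CPM in old. The part of these differences in the chaperone levels was not tested, beyond the values without cells of other lineages given below. Pairs of libraries shared between 120 and 161 cell barcodes, and doublets were not removed beyond the trim of the highest UMI counts. Levels are given in CPM over all kept cells of a library or band, and the intervals in parentheses are exact 95% ones for counting error alone. Because a UMI stands for a captured molecule of any length, CPM compares genes only as far as their 3′ ends are captured alike, and the ratio of a gene between libraries does not depend on that.

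The inducible Hsp70 pair was above 1 CPM in young only. Hspa1a stood at 9.92 CPM (9.20 to 10.7, 709 UMIs) in young, 0.375 CPM (36 UMIs) in control and 0.155 CPM (19 UMIs) in old. Hspa1b stood at 7.80 CPM (558 UMIs) in young, 0.344 CPM (33 UMIs) in control and 0.195 CPM (24 UMIs) in old. Young was the high library for both genes, and its intervals lay far from those of the other pair. Hspa1a was 64.1 times lower in old than in young (interval 40.7 to 107) and 26.4 times lower in control than in young (18.9 to 38.1). Hspa1b was 39.9 times lower in old than in young (26.6 to 62.9) and 22.7 times lower in control (16.0 to 33.3). The control library, with the same labelled age as young, thus lay on the side of old, and the pair summed to 0.719 CPM in control and 0.350 CPM in old. The last 500 bases of the Hspa1a and Hspa1b transcripts shared no window of 100 bases with each other or any other gene, although 48.6% and 49.9% of the windows over the whole transcripts did, so the 3′ ends that this kit counts separate the genes.

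Of the other inducible members, Dnajb1 had the order of the Hsp70 pair with smaller differences, and Hsph1 and Hsp90aa1 had other orders. Dnajb1, the J-domain protein that works with the induced Hsp70, stood at 46.0 CPM in young, 32.6 in control and 31.0 in old. Its control and old levels were close, at 1.05 times, and young was highest. Hsph1 (Hsp110), which exchanges the nucleotide of Hsp70, stood at 7.92 CPM in young, 8.15 in control and 1.89 in old. Here old was the low library, 4.19 times below young (3.59 to 4.90) and 4.31 times below control (3.72 to 5.02), and young and control did not differ beyond counting error. Hsp90aa1 (chr12:110690605-110702728, minus strand), the inducible cytosolic Hsp90, stood at 295 CPM in young, 338 in control and 196 in old. Old was again lowest and control highest, and the intervals did not overlap. Among the 5 inducible members, young alone was thus high in Hspa1a, Hspa1b and Dnajb1, and old alone was low in Hsph1 and Hsp90aa1.

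The constitutive pair carried most of the cytosolic chaperone UMIs and was lower in old. Hspa8 (chr9:40800984-40810087, plus strand), the Hsc70 that folds nascent chains and uncoats clathrin vesicles, stood at 1008 CPM in young, 1012 in control and 573 in old. Young and control were alike to within counting error, and old was 1.76 times below young and 1.77 times below control. Hsp90ab1 (chr17:45567775-45573271, minus strand), the constitutive Hsp90, stood at 393 CPM in young, 374 in control and 267 in old. The 79.3% of windows in the last 500 bases of Hspa8 that also occur in 7 other genes, mostly unnamed copies such as Gm15459, make its level uncertain, and how such reads were counted is not given in the sources used here. The same held for 34.4% of the windows of Hspe1, and for none of the other members. Gm15459, Gm8355 and Gm6210, which shared the most windows with Hspa8, were not in the gene table.

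**Figure D1:**
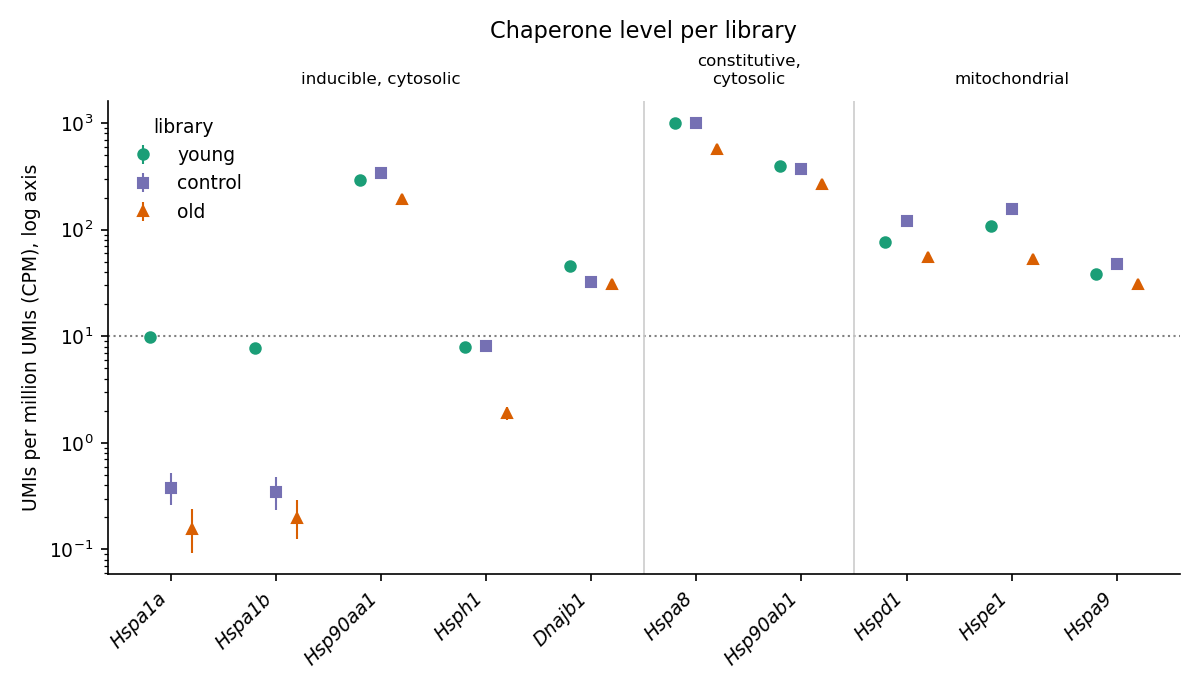
CPM (UMIs per 1000000 UMIs, log axis) of the 10 members in the young, control and old libraries, 1 point per library with its exact 95% counting interval; the dotted line marks 10 CPM. Hspa1a and Hspa1b stood near 10 CPM in young and below 1 CPM in control and old, while Hspa8 was at or above 573 CPM in all 3 libraries.

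The mitochondrial members were highest in control. Hspd1 stood at 77.0 CPM in young, 122 in control and 55.6 in old. Its lid Hspe1 stood at 109 CPM in young, 158 in control and 52.6 in old. Hspa9 stood at 38.4 CPM in young, 48.1 in control and 30.7 in old. All 3 kept the order control, young, old, and no intervals of neighbours overlapped. Hspe1 was 3.00 times lower in old than in control (2.91 to 3.09), the 11th lowest ratio among 5466 genes. The UMIs of Hspe1 for each 100 of Hspd1, its partner across the shared start region, were 142 in young, 130 in control and 94.8 in old, and none of the 3 intervals overlapped.

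A member was called higher or lower when its CPM differed by at least 1.5 times, among all genes that reached 10 CPM in one or both libraries compared. Between old and young, 7 of the 10 members could be called, since Hspa1a, Hspa1b and Hsph1 stayed below 10 CPM. Of these, 0 were higher, where 4.09% of all 5752 genes were, and 3 were lower, where 14.2% of all genes were. The 3 were Hspe1 with a log2 ratio of -1.05, Hspa8 with -0.82 and Hsp90aa1 with -0.59. Hsp90aa1 lay just inside the limit (interval 1.47 to 1.53 times), and Dnajb1 and Hsp90ab1 lay just outside it at 1.48 and 1.47 times. All 10 members were lower in old than in young, with a median log2 ratio of -0.70, and the smallest difference was that of Hspa9 with -0.32. The 7 members that could be called had a median of -0.57, against -0.12 for all genes that reached 10 CPM. The count of 3 was 6 with all deposited cells, 7 with UMI percentiles taken over young and old together, 5 with the mean of per-cell shares and 1 without scaling for depth. The share of all genes that were lower was not counted under these settings, so these counts cannot be set against it. Hspa9 was at 0.01 with the 4 bands weighted equally and at 0.11 without scaling.

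Between the libraries of the same labelled age, control and young, 1 of the 7 members was higher, where 1.82% of 5725 genes were, and 0 were lower, where 6.69% were. The 1 was Hspd1, at a log2 ratio of 0.66, followed by Hspe1 with 0.53 and Hspa9 with 0.33. The members fell on both sides here, 4 of 10 below 0, with a median of 0.02 over the 10. The 7 that could be called had a median of 0.20, against -0.05 for all genes that reached 10 CPM. Between old and control, 0 of 7 members were higher, where 5.29% of 5466 genes were, and 5 were lower, where 8.07% were. These were Hspe1 (-1.59), Hspd1 (-1.13), Hspa8 (-0.82), Hsp90aa1 (-0.79) and Hspa9 (-0.65), and all 10 members were below 0 with a median of -0.82. The 7 that could be called had a median of -0.79, against -0.07 for all genes that reached 10 CPM. Old took part in both comparisons with a lower level, so they are not independent of each other.

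**Figure D2:**
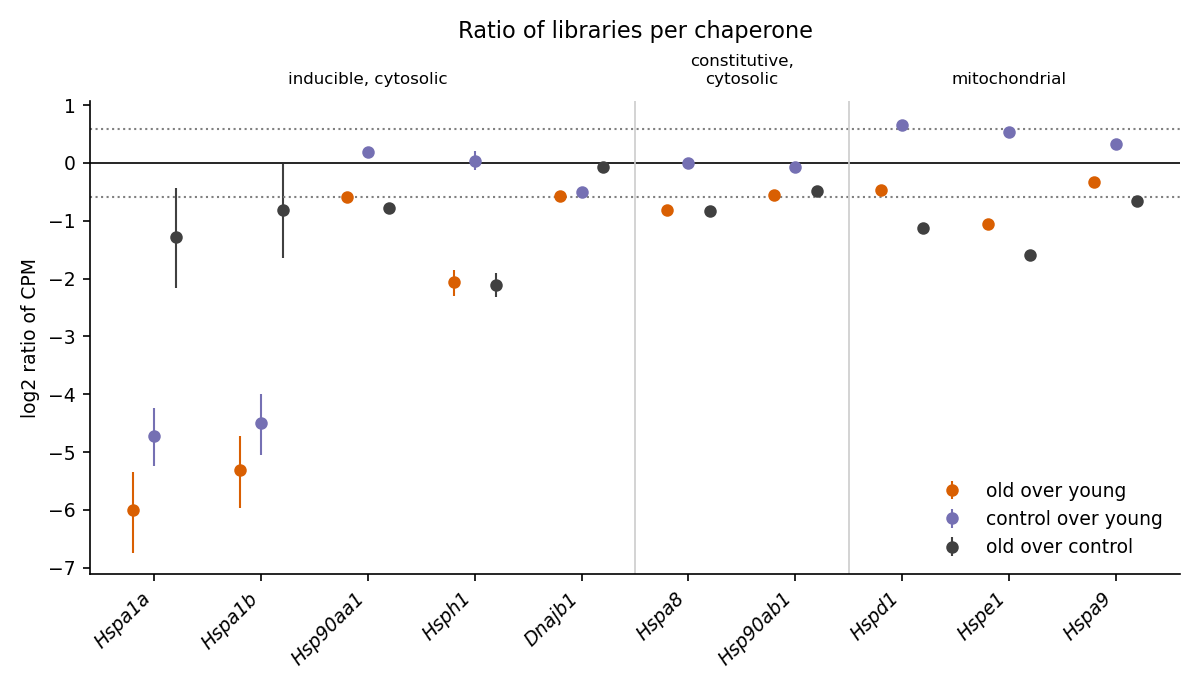
Log2 ratio of CPM between libraries for the 10 members, with exact 95% counting intervals; dotted lines mark 1.5 times in either direction. Every ratio of old over young and old over control was below 0, from -0.07 for Dnajb1 in old over control to -6.00 for Hspa1a in old over young.

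Ratios between members within a library do not depend on the total of its UMIs. For each 100 UMIs of the constitutive pair the 5 inducible members together had 26.1 in young (25.8 to 26.5), 27.4 in control (27.1 to 27.7) and 27.3 in old (27.0 to 27.7). The balance of inducible to constitutive cytosolic chaperones was therefore nearly the same in the 3 libraries, and most of the inducible UMIs were those of Hsp90aa1. The Hsp70 family alone gave another picture, with 1.76 UMIs of Hspa1a and Hspa1b for each 100 of Hspa8 in young, 0.0710 in control and 0.0611 in old. The Hsp90 pair differed less, with 75.02 UMIs of Hsp90aa1 for each 100 of Hsp90ab1 in young, 90.4 in control and 73.4 in old.

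Mpo, the myeloperoxidase of azurophil granules, marks the promyelocyte end of these cells and ordered them in each library into 4 bands, of under 3, 3 to under 10, 10 to under 40, and 40 or more Mpo UMIs per 10000. The highest band held 1332 young, 1474 control and 1073 old cells, and the lowest 2595, 2755 and 3889. Elane, the elastase of the same granules, was between 18292 and 25009 CPM in the highest band and between 825 and 1379 CPM in the lowest. Median UMIs per cell were also higher in the highest band, at 11953, 12677 and 15510 against 8741, 8810 and 11869 in young, control and old, and the part of depth in what follows was not tested beyond the scaling.

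Most chaperones were higher at the promyelocyte end. Among members with at least 10 CPM in either band, 9 of 10 in young, 7 of 8 in control and 6 of 7 in old were higher in the highest than in the lowest band by at least 1.5 times. Hspa1a, Hspa1b and Hsph1 in young and Hsph1 in control reached 10 CPM in the highest band only, so that the filter nearly fixed their calls. In the same contrast 45.8% of all genes were higher in young, 51.7% in control and 53.4% in old, and the median log2 ratio of all genes was 0.51, 0.63 and 0.65. Among genes at 10 CPM or more in the lowest band, a filter added after the values were seen, 6 of 7 members were higher in each library, where 37.2% of all genes were in young, 42.2% in control and 43.5% in old. The summed mitochondrial members had a log2 ratio of 2.82 ± 0.67 (SD over 3 libraries of different conditions), from 2.04 in young to 3.22 in control. The inducible cytosolic members had 1.80 ± 0.36 and the constitutive ones 1.55 ± 0.42. In each library the summed mitochondrial ratio was the largest and the summed constitutive one the smallest. Mitochondrial UMIs per 100 constitutive ones went from 12.1 to 23.6 in young, 14.0 to 36.1 in control and 10.4 to 28.6 in old. The Hsp90 pair alone had the other order. Constitutive Hsp90ab1 had log2 ratios of 1.74 in young, 2.70 in control and 2.36 in old, and inducible Hsp90aa1 had 1.47, 2.18 and 2.22. The low constitutive sum was that of Hspa8, with 0.79, 1.56 and 1.42 in the same libraries.

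Of the members that reached 10 CPM, Dnajb1 differed least between bands. It stood at 43.5, 44.7, 47.3 and 51.3 CPM in the young bands from lowest to highest, at 31.2, 31.1, 34.5 and 36.3 CPM in control and at 28.9, 30.1, 36.9 and 32.6 CPM in old. The highest band lay above the lowest by a log2 ratio of 0.21 ± 0.03 (SD, n = 3 libraries), below the median of all genes. Hspa8 went from 836 to 1451 CPM in young, from 659 to 1944 CPM in control and from 409 to 1094 CPM in old. Hspe1 had the largest mean log2 ratio of the members, 3.11 ± 0.86 (SD, n = 3 libraries), from 62.6 to 273 CPM in young, from 48.5 to 550 CPM in control and from 17.8 to 233 CPM in old. Hsph1 went from 5.18 to 18.8 CPM, from 2.41 to 26.3 CPM and from 0.620 to 7.83 CPM in the same libraries. Young had the smallest ratio of the 3 libraries for Hsp90aa1, Hsp90ab1, Hspa8, Hspd1, Hspe1, Hspa9 and Hsph1. Cells with markers of another lineage numbered 326, 349, 43 and 51 in the young bands from lowest to highest, and their Hspa8 ranged from 872 CPM with erythroid markers to 2490 CPM with monocyte markers. Without those cells the 3 groups had log2 ratios of 3.02 ± 0.39, 1.91 ± 0.20 and 1.69 ± 0.23, in the same order.

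**Figure D3:**
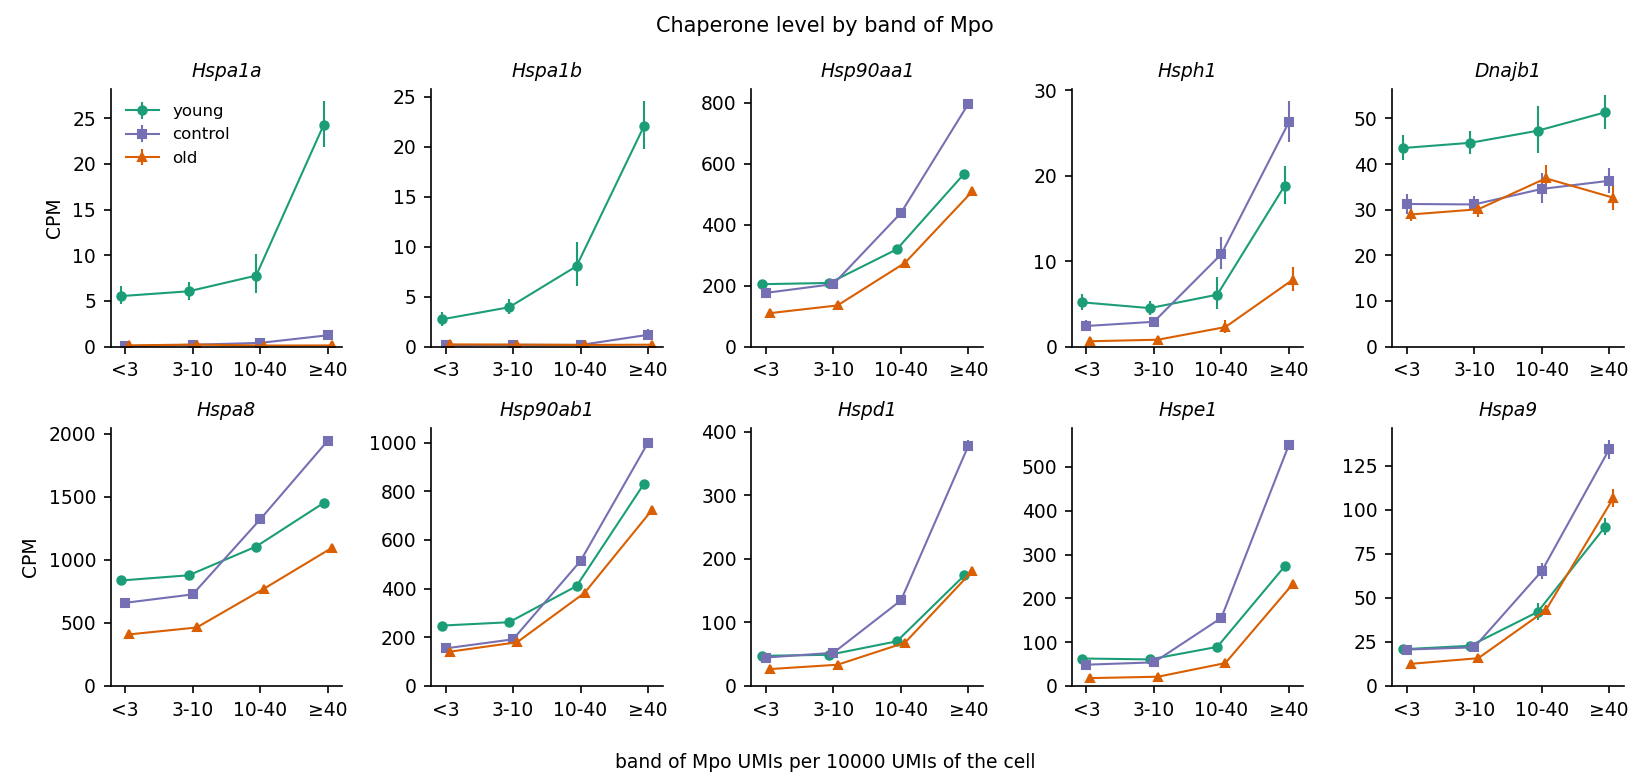
CPM of each member in the 4 bands of Mpo UMIs per 10000 UMIs, 1 line per library, points with exact 95% counting intervals. The highest band lies above the lowest in every panel and library except for Hspa1a and Hspa1b in old, which stayed below 1 CPM in every band, and among the members that reached 10 CPM the difference is smallest for Dnajb1.

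Set side by side within bands, old was below control at every Mpo level for 7 members. In all 4 bands the interval lay below 0 for Hsp90aa1, Hsp90ab1, Hspa8, Hspa9, Hspd1, Hspe1 and Hsph1, in 1 band for Hspa1a and Hspa1b, and in none for Dnajb1. The share of all genes with such intervals was not counted, and counting intervals are narrow for genes with many UMIs. Against young, the difference of old was larger in the lowest than in the highest band for 7 members, but not for Hspa1a (-5.43 and -7.63), Hspa1b (-3.67 and -6.91) and Dnajb1 (-0.59 and -0.65). Hspa8 was below young by a log2 ratio of -1.03 in the lowest band and -0.41 in the highest, and Hspe1 by -1.81 and -0.23. Hspa9 was below young by -0.73 (-0.91 to -0.55) in the lowest band and above it by 0.24 (0.13 to 0.34) in the highest. Without cells of other lineages, the lowest-band values were -0.72 for Hspa8, -1.11 for Hspe1 and -0.34 for Hspa9, so that part of the difference moved with those cells.

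Control and young crossed between bands for 5 members, and how many of all genes crossed was not counted. In the highest band control was above young by a log2 ratio of 1.12 for Hspd1, 1.01 for Hspe1, 0.57 for Hspa9, 0.49 for Hsp90aa1, 0.48 for Hsph1, 0.42 for Hspa8 and 0.27 for Hsp90ab1. In the lowest band control was below young by -1.10 for Hsph1, -0.68 for Hsp90ab1, -0.37 for Hspe1, -0.34 for Hspa8 and -0.22 for Hsp90aa1. With cells of other lineages left out, the lowest-band values of Hsp90aa1 and Hspe1 were 0.08 and 0.39, those of Hspa8 and Hsph1 were -0.03 and -0.23 with intervals that held 0, and Hsp90ab1 stayed below 0 with -0.18. Dnajb1, Hspa1a and Hspa1b did not cross, and their control over young intervals lay below 0 in all 4 bands.

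UMIs of the Hsp70 pair were found in a minority of young cells. With every cell thinned to 3000 UMIs, 3.72% of young cells (3.31 to 4.18) had a UMI of Hspa1a or Hspa1b, against 0.215% of control (0.133 to 0.328) and 0.168% of old cells (0.0959 to 0.272). Before thinning the shares were 8.24%, 0.593% and 0.430%. The young share went with Mpo, from 2.04% in the lowest band over 2.64% and 4.24% to 9.16% (7.66 to 10.8) in the highest. Control had 0.109%, 0.136%, 0.350% and 0.543% in the same bands, from 21 cells in all and with intervals that overlapped. Old had 0.206%, 0.180%, 0 of 1233 cells, which allows up to 0.243%, and 0.186%. Over all UMIs without thinning, the summed pair was 5.62 times higher in the highest than the lowest band in young (4.78 to 6.63). In control it was 15.0 times higher (5.45 to 57.5, 43 and 4 UMIs), so the rise with Mpo was not particular to young. In old it was 0.895 times (0.256 to 2.56). No cell type that lacks these genes is known in the sort, so the share that free RNA gives within the young library was not measured, and the shares of control and old do not stand in for it. For comparison, Hspa8 had a UMI in 85.4%, 84.6% and 72.0% of thinned young, control and old cells.

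**Figure D4:**
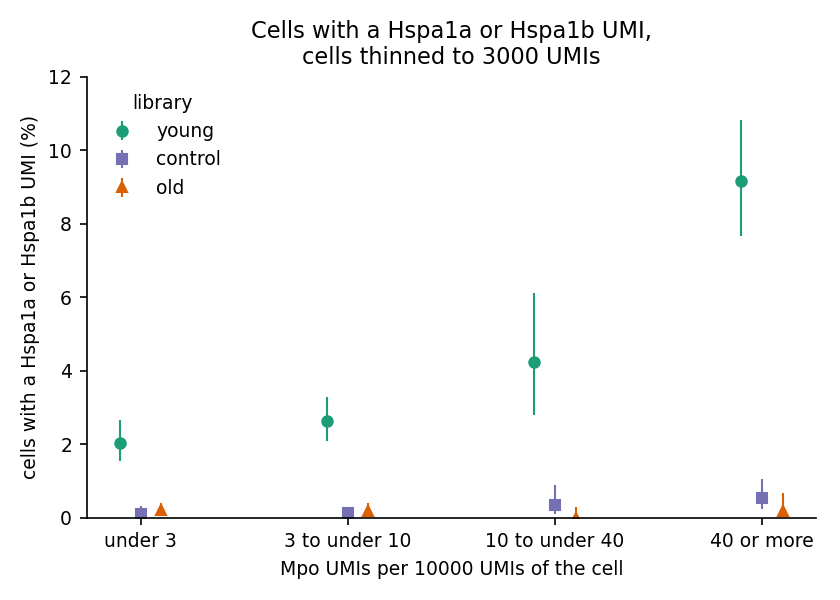
Percent of cells with at least 1 UMI of Hspa1a or Hspa1b after thinning each cell to 3000 UMIs, by band of Mpo and library, with exact 95% binomial intervals. Young went from 2.04% to 9.16%, and control and old stayed below 1% in every band.

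Within young the UMIs were concentrated. The 75 cells with the most (1% of cells) held 38.8% of the 1267 UMIs, the highest Mpo band held 55.5% of them with 21.2% of all UMIs, and 1 cell had 15. In control that band held 62.3% of the UMIs of the pair with 18.6% of all UMIs, and in old 11.6% with 13.3%. For the other members in young it held from 23.7% for Dnajb1 to 53.1% for Hspe1. A share above that of all UMIs was thus particular neither to young nor to the pair. Hspa1a was found in 413 and Hspa1b in 349 young cells, and 142 cells had both, which is 34.4% of the former and 40.7% of the latter. Over the thinned cells the variance of the summed pair was 1.52 times its mean in young, where random sampling gives about 1. Hspa8 had 2.66, Hsp90ab1 2.26, Hsp90aa1 1.70 and Hspe1 1.60, at means of 0.315 to 2.91 UMIs per thinned cell against 0.0472 for the pair. Hspd1 (1.38), Hspa9 (1.17) and Dnajb1 (1.003) had lower values than the pair at higher means. Hsph1 had 1.07 at a mean of 0.0227. Because this measure can rise with the mean, it does not rank the pair against members at other levels. Cells with markers of another lineage had 42.9 CPM of the pair in young and the remaining cells 15.3 CPM, so the young level without them was still above 0.714 and 0.345 CPM in the remaining control and old cells. Within them, Hspa1a stood at 36.6 CPM in 414 cells with monocyte markers and at 4.71 CPM in 132 cells with B progenitor markers.

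Other chaperones were higher in the young cells that carried UMIs of the Hsp70 pair. In the highest Mpo band, without other lineages, 1015 young cells had no Hspa1a or Hspa1b UMI, 183 had 1 or 2, and 83 had 3 or more. These classes divide a range and were chosen after the values were seen, and 53 cells had 2 and 27 cells had 3 UMIs. The 3 sets had like median depths of 11811, 12599 and 12447 UMIs. Hsph1 stood at 14.4 CPM with none, 27.0 with 1 or 2 and 52.0 with 3 or more. Hsp90aa1 stood at 501, 742 and 898 CPM, Dnajb1 at 47.7, 59.1 and 76.5 CPM, and Hspe1 at 237, 342 and 451 CPM. All 4 went up over the 3 sets, and the constitutive members went up less, with Hspa8 at 1339, 1782 and 1859 CPM and Hsp90ab1 at 784, 889 and 1013 CPM.

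With 3 or more against none, Hsph1 was 3.60 times higher (2.59 to 4.94), Hspe1 1.91 times (1.72 to 2.11), Hsp90aa1 1.79 times (1.67 to 1.92) and Dnajb1 1.61 times (1.25 to 2.04). These 4 of the other 8 members passed 1.5 times, where 5.39% of all 6441 genes did, and the median log2 ratio of all genes was 0.03. Hspd1 had 1.41 times (1.23 to 1.62), Hspa8 1.39 times and Hsp90ab1 1.29 times, and Hspa9 had 0.978 times (0.773 to 1.22). Dnaja1, a further J-domain protein, went from 368 to 561 CPM. Elane stood at 25319 and 25357 CPM in cells with none and with 3 or more, Mpo at 9505 and 8883 CPM and the mitosis marker Mki67 at 78.1 and 104 CPM. Fos, an immediate early gene that dissociation is known to raise, stood at 6.91 and 3.92 CPM from 79 and 4 UMIs. Jun, of the same kind, was 2.29 times higher with 3 or more (1.08 to 4.42), from 11 and 54 UMIs. Jun was not ordered over the 3 sets, with 4.72 CPM with none and 2.70 CPM with 1 or 2. With any UMI against none Jun had 1.11 times (0.604 to 1.95). With any UMI against none (266 against 1015 cells), Hsph1 had 2.42 times, Hspe1 1.59 times and Hsp90aa1 1.58 times, and Dnajb1 1.35 times (1.15 to 1.59), so that 3 of 8 passed, where 1.02% of all 6360 genes did. In control, 34 cells of this band had a UMI of the pair, and Hspe1 was 1.39 times (1.24 to 1.56), Hspa8 1.36 times (1.28 to 1.44) and Hsp90aa1 1.09 times (0.984 to 1.21) higher there than in the 1434 cells without. In control 1 of 8 members passed 1.5 times, Dnajb1 with 1.51 times (0.949 to 2.28), which is near the 13.3% of all 6318 genes that did.

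**Figure D5:**
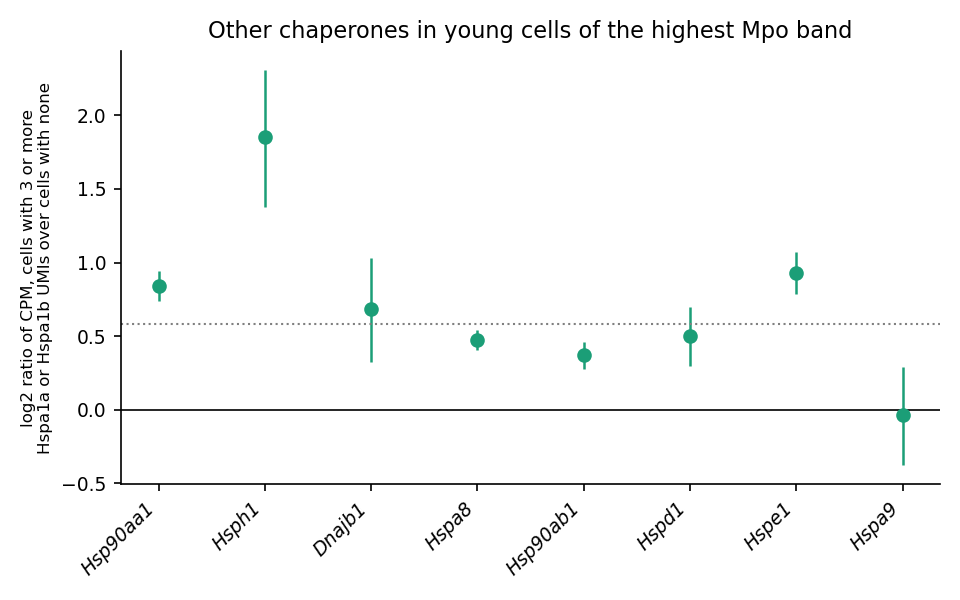
Log2 ratio of CPM of the other 8 members in young cells of the highest Mpo band, 83 cells with 3 or more Hspa1a or Hspa1b UMIs over 1015 cells with none, with exact 95% counting intervals; the dotted line marks 1.5 times. Hsph1 lies highest at 1.85, and the interval of Hspa9 holds 0.

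The genes that work with the members are given by list, and their counts are to be read against the 4.09% of all genes that were higher and the 14.2% that were lower in old than young. Of 18 HSF1-linked and other stress genes, 8 could be called, and 0 were higher and 2 lower in old than in young, Dnaja1 (-0.84) and Hspa4l (-0.80), followed by Cacybp (-0.55) and Chordc1 (-0.41). Their median log2 ratio was -0.31 against -0.12 for all genes. Between old and control 0 of 8 were higher and 2 lower, Cacybp (-0.82) and Dnaja1 (-0.63), where 8.07% of all genes were lower. Hsf1 itself stood at 6.50 CPM in young, 7.49 in control and 4.76 in old, and the small heat shock proteins Hspb1 and Hspb8 had 0 UMIs in every library, which allows up to 0.0420 CPM in young. Bag3, a cochaperone that stress induces, stood at 1.54 CPM in young and 0.871 CPM in old.

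Of 17 Hsp70 and Hsp90 cochaperones 14 could be called, and 0 were higher and 3 lower in old than in young. These were the Hsp90 immunophilins Fkbp4 (-0.84) and Ppid (-0.61) and the Hsp70 partner St13 (-0.72), and Ptges3 (p23) had -0.46. Between old and control 5 of 15 were lower, where 8.07% of all genes were, and 0 higher. With lists this short, 2 of 8 and 3 of 14 are close to the shares of all genes. Of 14 subunits of the cytosolic chaperonin TRiC and of prefoldin 13 were in the gene table, and 0 passed the limit in either direction between old and young, with the largest difference for Cct3 (-0.39), then Pfdn2 (-0.34), Pfdn6 (-0.34) and Cct4 (-0.27). The median of these 13 was -0.10, close to that of all genes. Between old and control 2 of the 13 were lower, Cct3 (-0.66) and Pfdn2 (-0.61), with a median of -0.23 against -0.07 for all genes. Of 12 mitochondrial partners and proteases 0 passed the limit between old and young, and the largest differences were those of Hscb (-0.49), Grpel2 (-0.47), Dnlz (-0.47) and Dnaja3 (-0.35). Between old and young, Hspe1 had -1.05, Hspd1 -0.47 and Hspa9 -0.32, against a median of -0.16 for these partners. Hspa9 thus lay below the median of the partners. The partners named were picked for the largest differences, so they do not show where Hspa9 stands among the 12. Between old and control, the 3 members had -0.65 to -1.59, against a median of -0.33 for the partners. There 1 of 11 partners passed the limit, Grpel2 with -0.61, close to Hspa9 with -0.65.

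Among 14 immediate early genes, which cell handling is also known to raise, 7 could be called. In old 3 were higher than in young, Jund (1.14), Ier3 (1.09) and Junb (0.85), and Btg2 was lower (-0.60), where 4.09% and 14.2% of all genes were. Between control and young 0 were higher and 3 lower, where 1.82% and 6.69% of all genes were. Between old and control 3 were higher and 0 lower, where 5.29% and 8.07% were. The list was split. Fos was highest in young with 7.75 CPM against 4.20 in control and 3.23 in old. Atf3 (0.657, 0.0417 and 0.0326 CPM), Egr1 (0.531, 0.188 and 0.204 CPM) and Fosb (0.196, 0.0313 and 0.0326 CPM) were also highest in young like the Hsp70 pair. These and Fos were below the 10 CPM needed for a call. Btg2 (30.9, 14.0 and 20.3 CPM), Ier5 (28.7, 18.9 and 25.9 CPM) and Zfp36 (17.6, 11.1 and 15.1 CPM) were highest in young too. So were Dusp1 (6.98, 3.19 and 5.93 CPM) and Nr4a1 (1.34, 0.427 and 0.749 CPM). Within young, Fos, Atf3, Egr1 and Fosb were also read by Mpo band, without intervals and at levels below 10 CPM. In young without other lineages, the summed pair went from 5.82 CPM in the lowest to 44.9 CPM in the highest Mpo band. Fos went from 6.26 to 6.54 CPM, Atf3 from 0.345 to 0.136, Egr1 from 0.493 to 0.068 and Fosb from 0.148 to 0.204. Jun was highest in old with 9.50 CPM against 5.44 in young and 3.12 in control, and Junb, Jund, Ier2 and Ier3 were highest in old too. Fos, Atf3, Egr1, Fosb, Jun, Ier2, Ier5, Zfp36, Dusp1 and Nr4a1 were named after their values were seen. The part of handling in the chaperone levels was not tested.

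Over the 12 points made by 3 libraries and 4 bands, genes with at least 20 CPM on average were ranked by the correlation of their log2 CPM with that of each group's sum. Most like the inducible sum were St13, Ndufs7, Fbl, Stip1 and Naa15 (Pearson's r from 0.994 to 0.997 among 3742 genes). Most UMIs of that sum were those of Hsp90aa1, with 21067 of 26187 in young, 32451 of 36429 in control and 24094 of 28177 in old. The ranking thus mostly follows Hsp90aa1 and does not stand for Hspa1a, Hspa1b or Dnajb1, which differed otherwise between libraries or bands. Stip1 (Hop) and St13 (Hip) are cochaperones that hold Hsp70 and Hsp90. Most like the constitutive members were Nap1l1, Naa15, Atic, Fbl and Nutf2 (0.990 to 0.994), and most like the mitochondrial members Rsl24d1, Ruvbl2, Cacybp, Hypk and Tomm70a (0.995 to 0.997), of which Tomm70a is the import receptor that takes precursors from Hsp70 and Hsp90. The points of a library share its cells and depth, and these values are a description.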

How the data were processed

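Per the labels, CD133+ bone marrow cells of 3 pooled C57BL/6 mice per library were sorted and sequenced with the 10x 3′ v2 kit. The submitters' processing notes name Cell Ranger 2.1.0, STAR and mm10. The authors deposited raw UMI counts per gene and cell, not normalized, and 1 library per condition. From these counts, cells under 20% mitochondrial UMIs and between the 5th and 95th percentile of UMIs of their library were kept. UMIs were summed per library or Mpo band and divided by the total. Ratios have exact conditional binomial intervals, levels exact Poisson ones and shares Clopper-Pearson ones, all at 95% and for counting error only, and 0 UMIs were read as an upper limit of 3 counts. Kept UMIs ranged from 71505883 to 122803960 per library. A cell carried another lineage with at least 3 markers and 10 UMIs of that lineage. For like genes, log2(CPM + 1) was used. Reference positions came from GENCODE M21 (GRCm38), which held 27645 of the 27998 gene IDs, and promoters from RefSeq. Ratios were checked on simulated data. Intervals used scipy 1.17.1, tables pandas 2.3.3 and numpy 2.4.6, and figures matplotlib 3.10.9, under Python 3.11.15. The genes named are the 10 members, the up to 4 genes of each partner list above 10 CPM with the largest difference between old and young, and the 5 most like genes per group. Genes named outside this rule are Hsf1, Hspb1, Hspb8, Bag3, Fos, Jun, Atf3, Egr1, Fosb, Ier2, Ier5, Zfp36, Dusp1, Nr4a1, Hspa5 and Hsp90b1. Members and lists were chosen with earlier results of these data known. The values without other lineages by band, the classes by Hspa1a and Hspa1b UMIs, the split by mitosis markers, the filter on the lowest band and the interferon genes were added after the data were seen. Alternatives covered the cells kept, the scaling, the minimum CPM, the limit and the thinning.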

Additional observations from a re-analysis of the deposited data

Results flagged for a closer look

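For 6 members the ratio between libraries had opposite signs in the lowest and the highest Mpo band, with counting intervals on opposite sides of 0. No difference between bands was tested, since each condition was 1 library, and how many of all genes had such opposite signs was not counted. For control over young, the log2 ratio of the highest band exceeded that of the lowest by 1.58 for Hsph1, 1.38 for Hspe1, 0.95 for Hsp90ab1, 0.77 for Hspa8 and 0.70 for Hsp90aa1. For old over young it did so by 0.97 for Hspa9. Without cells of other lineages, which made up 326 of the 2595 young cells of the lowest band, opposite signs with intervals beyond 0 were left for Hsp90ab1 (-0.18 and 0.29) and Hspa9 (-0.34 and 0.27).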

How the results depend on the processing

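Of the 10 members, 3 were called lower in old than young, 1 higher and 0 lower in control than young, and 5 lower in old than control. The share of all genes called was counted for this main setting only, so the counts below have none beside them. With all deposited cells, 6 were lower in old than young and 1 lower in control than young. With UMI percentiles taken over young and old together, these were 7 and 1. Without other lineages, 2 were higher in control than young. With the mean of per-cell shares, 5 were lower in old than young and 0 higher in control. With the 4 bands weighted equally, 2 were higher and 1 lower in control than young. With no minimum CPM, 6 were lower in old than young, 2 in control than young and 8 in old than control, as more members were tested. At a limit of 2 times these were 1 lower in old than young, 0 higher in control than young and 2 lower in old than control. Without scaling for depth, 1 was lower in old than young and 2 in old than control, and the inducible log2 ratio of highest over lowest band was 2.18 in place of 1.80. Thinned to 5000 UMIs, leaving out shallower cells, 5.50% of young cells had an Hspa1a or Hspa1b UMI in place of 3.72%. Except for those explained by their construction, the cause was not tested. With the median of all genes set to 0, the 10 members had a median of -0.58 between old and young. The sign was kept in 68 of 70 member values for old over young, 69 of 70 for old over control and 63 of 70 for control over young, and Hspa9 reached 0.11 in old over young without scaling. No paired analysis was possible because each condition was 1 library, and for the same reason no replicate could be left out. Levels under 1 CPM rest on few UMIs, 19 for Hspa1a in old.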

Other observations

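The chaperones of the endoplasmic reticulum, looked at after the values were seen, differed between libraries too. Hspa5 (BiP), the Hsp70 of that compartment, stood at 271 CPM in young, 397 in control and 228 in old. Hsp90b1 (Grp94), its Hsp90, stood at 236 CPM in young, 263 in control and 125 in old. Both were highest in control and lowest in old, the order of Hspd1, Hspe1 and Hspa9.

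Hsp90aa1 and Hspa8 also differed with mitosis markers at low Mpo. Without other lineages, cells of the lowest Mpo band with under 2, 2 to under 10, and 10 or more mitosis marker UMIs per 10000 had 69.9, 127 and 186 CPM of Hsp90aa1 in young, 75.1, 132 and 199 CPM in control and 37.4, 68.2 and 137 CPM in old. Hspa8 stood at 444, 629 and 697 CPM in young, 396, 559 and 708 CPM in control and 291, 360 and 435 CPM in old. In all 3 libraries both genes were higher with more mitosis markers, but they are 2 of the 10 members. Hsp90ab1 stood at 177, 182 and 166 CPM in young, 113, 159 and 151 CPM in control and 111, 128 and 147 CPM in old. The classes also differed in depth, with 1359589 UMIs in 242 cells of the lowest and 13902989 UMIs in 1321 cells of the upper class in young. The part of depth was not tested. In the highest band, Hsp90aa1 stood at 564 and 570 CPM in young, 817 and 771 CPM in control and 570 and 474 CPM in old in the middle and upper class, and Hspa8 at 1397 and 1496 CPM in young, 1746 and 2233 CPM in control and 1101 and 1087 CPM in old. There the upper class was higher in young and control for Hspa8 and lower in control and old for Hsp90aa1. Hsp90aa1 in young and Hspa8 in old were nearly equal in the 2 classes, and no intervals were computed for this split.

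The cells above the 95th percentile of UMIs, left out of all levels, held more Hspa8. It stood there at 1500 CPM in 419 young cells, 1596 CPM in 544 control cells and 713 CPM in 530 old cells, each above the level of the kept cells. Dnajb1 did not differ so in old, with 30.9 CPM against 31.0 in the kept cells.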
